A study of Mus musculus with 24 samples.

Results

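The secreted Wnt proteins, their receptors, their secreted antagonists and the proximal parts of the signalling cascade were followed in mouse dorsal root ganglia, the clusters of sensory neurons beside the spinal cord that send fibres into the sciatic nerve. The set was chosen by gene symbol and held 51 of the 38215 genes in the files: 19 Wnt ligands, 10 frizzled receptors (Fzd), the co-receptors Lrp5 and Lrp6, 4 R-spondins (Rspo), 10 secreted antagonists (Dkk1 to Dkk4, Sfrp1, Sfrp2, Sfrp4, Sfrp5, Frzb and Wif1), the scaffold proteins Axin1 and Axin2, and 4 TCF/LEF transcription factors (Tcf7, Tcf7l1, Tcf7l2 and Lef1). Bulk RNA of whole ganglia was sequenced from 3 mouse strains labelled C57, CAST and DBA. Ganglia were naive or had their sciatic nerve crushed 5 days earlier, with 4 libraries in each of the 6 groups and 24 libraries in all. The title of the series concerns axon regeneration in CAST/Ei mice, and the design names biological quadruplicates. The labels give no age or sex, no transgene or agent, and no statement of how many animals were pooled in a library. The treatment field speaks of sham injury while each uninjured sample is labelled naive, so the uninjured groups are called naive here.

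A Wnt ligand binds a frizzled receptor together with an Lrp5 or Lrp6 co-receptor, which stops a complex built on axin from destroying β-catenin. β-catenin then enters the nucleus and activates genes through TCF/LEF factors, while other Wnt ligands act through frizzled receptors on cell polarity and the cytoskeleton. R-spondins amplify the signal by keeping frizzled receptors on the cell surface, Dkk1 blocks the co-receptor, and Sfrp proteins, Frzb and Wif1 bind Wnt ligands outside the cell. In the nervous system the pathway is known for axon guidance, synapse assembly and glial development.

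Levels are given as CPM, the estimated reads of a gene scaled to the total of its library, and were compared between genes only after division by exon length. Each mean carries the SD of 4 libraries. Fold changes are on the log2(CPM + 0.5) scale, with SE and an adjusted p from limma over 26159 genes, and calls were made below 0.05. The added 0.5 shrinks the fold changes of genes at low CPM, so they fall short of the log2 of the ratio of means. Estimated library totals ran from 51.38 M to 145.4 M reads. The p-values set a difference of group means against the spread between libraries, which limma estimated from all 24 libraries and moderated over genes. Of the 51 members, 50 passed the filter on low values, 42 of them with at least 10 reads in every library, and Dkk4 did not pass in any group. In whole ganglia, fewer cells of a type and less RNA per cell cannot be told apart.

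The tissue label was checked on 10 sensory neuron genes, whose summed level lay between 6876 and 8407 CPM in every library. After crush 6, 7 and 7 of these 10 genes fell in C57, CAST and DBA and 2 rose each time, with a median log2 change of -0.32, -0.48 and -0.46. Genes of macrophages moved strongly with injury: 11 of 11 tested rose in each strain, and their summed level went from 29.7 to 48.8 CPM in naive libraries to 178 to 261 CPM after crush. Of 10 fibroblast genes, 8, 8 and 10 rose in C57, CAST and DBA, and 1 fell in CAST. Skeletal muscle genes summed to 264.9 CPM in naive DBA replicate 3, against 4.67 to 44.7 CPM in the other 23 libraries. The part that these other cells have in any member's change was not tested.

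The windows around the transcription start of the ligands that moved most are shown first, because Wnt2b, Wnt4 and Wnt16 carry the largest differences between conditions or strains, together with that of Dkk1, an antagonist whose window holds a TCF/LEF motif. Each window spans 300 bases across the start, read from RefSeq on GRCm38.p6, the reference of C57BL/6J, and shows no CAST or DBA allele. Capitals mark the GC box (GGGCGG on either strand) in the ligands, and in Dkk1 the TCF/LEF motif (CTTTGAA or CTTTGAT on either strand). The positions are chr3:104961660-104961959 on the minus strand for Wnt2b, chr4:137277385-137277684 on the plus strand for Wnt4, chr6:22287977-22288276 on the plus strand for Wnt16 and chr19:30549447-30549746 on the minus strand for Dkk1.
Wnt2b: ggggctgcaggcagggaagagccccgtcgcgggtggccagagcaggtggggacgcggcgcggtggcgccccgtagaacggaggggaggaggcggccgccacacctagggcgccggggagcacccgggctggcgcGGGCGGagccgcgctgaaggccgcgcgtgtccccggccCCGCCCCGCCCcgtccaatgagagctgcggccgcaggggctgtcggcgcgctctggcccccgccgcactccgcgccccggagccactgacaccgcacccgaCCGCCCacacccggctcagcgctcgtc
Wnt4: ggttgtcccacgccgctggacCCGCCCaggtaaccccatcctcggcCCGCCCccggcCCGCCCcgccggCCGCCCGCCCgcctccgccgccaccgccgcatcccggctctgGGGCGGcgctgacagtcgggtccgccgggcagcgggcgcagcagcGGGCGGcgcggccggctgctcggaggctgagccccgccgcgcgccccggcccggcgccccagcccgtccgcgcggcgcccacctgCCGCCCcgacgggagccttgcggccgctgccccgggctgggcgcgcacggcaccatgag
Wnt16: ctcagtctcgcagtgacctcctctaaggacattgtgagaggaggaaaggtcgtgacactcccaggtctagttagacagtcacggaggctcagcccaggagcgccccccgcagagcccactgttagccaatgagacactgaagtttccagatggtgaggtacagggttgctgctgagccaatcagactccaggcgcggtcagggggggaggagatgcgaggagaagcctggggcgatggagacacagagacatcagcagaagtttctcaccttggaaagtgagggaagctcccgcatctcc
Dkk1: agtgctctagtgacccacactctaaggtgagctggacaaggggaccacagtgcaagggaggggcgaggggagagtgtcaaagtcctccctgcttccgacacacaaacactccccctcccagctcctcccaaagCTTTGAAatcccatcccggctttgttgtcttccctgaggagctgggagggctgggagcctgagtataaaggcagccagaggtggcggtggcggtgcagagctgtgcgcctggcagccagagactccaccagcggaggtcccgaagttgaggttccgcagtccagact
The Wnt2b window held 4 GC boxes at a GC content of 79.7%, the Wnt4 window 8 at 84.3% and the Wnt16 window 0 at 58.0%. RefSeq windows were found for 34 members, 42 windows in all, and 32 of these windows (27 members) held a GC box, against 35.7% of the 32851 windows in the table. The TCF/LEF motif was in the windows of 3 members (Dkk1, Wnt11 and Wnt5b), against 8.65% of all windows. The AP-1 motif TGACTCA was found in 1 member (Wnt5b), the STAT motif TTCNNNGAA in 2 (Frzb and Wnt5b) and the CRE motif TGACGTCA in 0, against 5.2%, 8.3% and 1.79% of all windows. These matches describe letters in a window only.

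In naive ganglia the most abundant members per length of exon were 2 secreted antagonists. This order takes the reads to lie in exons, which was not tested. The deposited values, divided by the whole gene span, put Fzd1 (4.96 in naive C57) above Dkk3 (3.01) and below Sfrp5 (26.6). Sfrp5 averaged 54.1 CPM per kb of exon over the 3 strains and Dkk3, a divergent Dickkopf protein counted with the antagonists by its family name, 36.1. Rspo2 followed at 11.3. Wnt2b had the highest mean over the strains among the ligands at 9.27, ahead of Wnt6 at 5.89 and Wnt5b at 3.42. Fzd1 led the receptors at 5.20, followed by Fzd8 at 2.81. Between the co-receptors, Lrp6 was at 2.24 CPM per kb. Of the 51 members, 19 lay above 1 and 40 above 0.1 CPM per kb, counts that include 7 members (Tcf7l2, Sfrp2, Wif1, Wnt10b, Wnt11, Wnt16 and Wnt7b) whose levels cannot be compared with other genes. Between libraries their levels are compared on the assumption that the same gene length served in each. Leaving these 7 out of the order, Wnt9b, Dkk4 and Dkk1 were the lowest at 0.0253, 0.0176 and 0.0119. The order differed by strain at the top: Wnt2b stood at 19.5 CPM per kb in CAST, where only Sfrp5 and Dkk3 were higher, but at 4.53 in C57 and 3.77 in DBA. In these strains Wnt6 led the ligands, at 5.38 in C57 and 7.07 in DBA.

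After crush, 21 of the 50 tested members changed in each strain. The 21 were 12 that rose and 9 that fell in C57. CAST had 13 that rose and 8 that fell, and DBA 16 and 5. The rises include Wif1 in each strain and Dkk1 in CAST and DBA, which met the filter on low values through injured libraries (all 8 of the libraries where Dkk1 reached 10 reads, and all but 1 of 12 for Wif1), so their place among the rises is a description and no support for these counts. These 42% lay beside 40.8% of all tested genes called in C57, 49.1% in CAST and 52.2% in DBA, so the share of members that changed was near or below the background. By direction, the genome-wide shares of rises and falls were 19.5% and 21.3% (C57), 26.7% and 22.4% (CAST) and 27.5% and 24.7% (DBA). The median log2 fold change over the tested members was 0.0057 (C57), -0.046 (CAST) and 0.090 (DBA), against -0.0017, 0.016 and 0.014 over all tested genes. The 3 crush comparisons use separate libraries. In all 3 strains 8 members rose (Wnt4, Fzd10, Fzd2, Rspo1, Wif1, Lrp5, Wnt5a and Axin1) and 3 fell (Dkk3, Frzb and Rspo4), which is 16% and 6% of those tested, beside 14.3% and 14.5% of all genes. Only Wnt2b among the 50 was called in opposite directions, and 18 were called in no strain. The same counts over all tested genes were not made, so both are a description only.

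**Figure D1:**
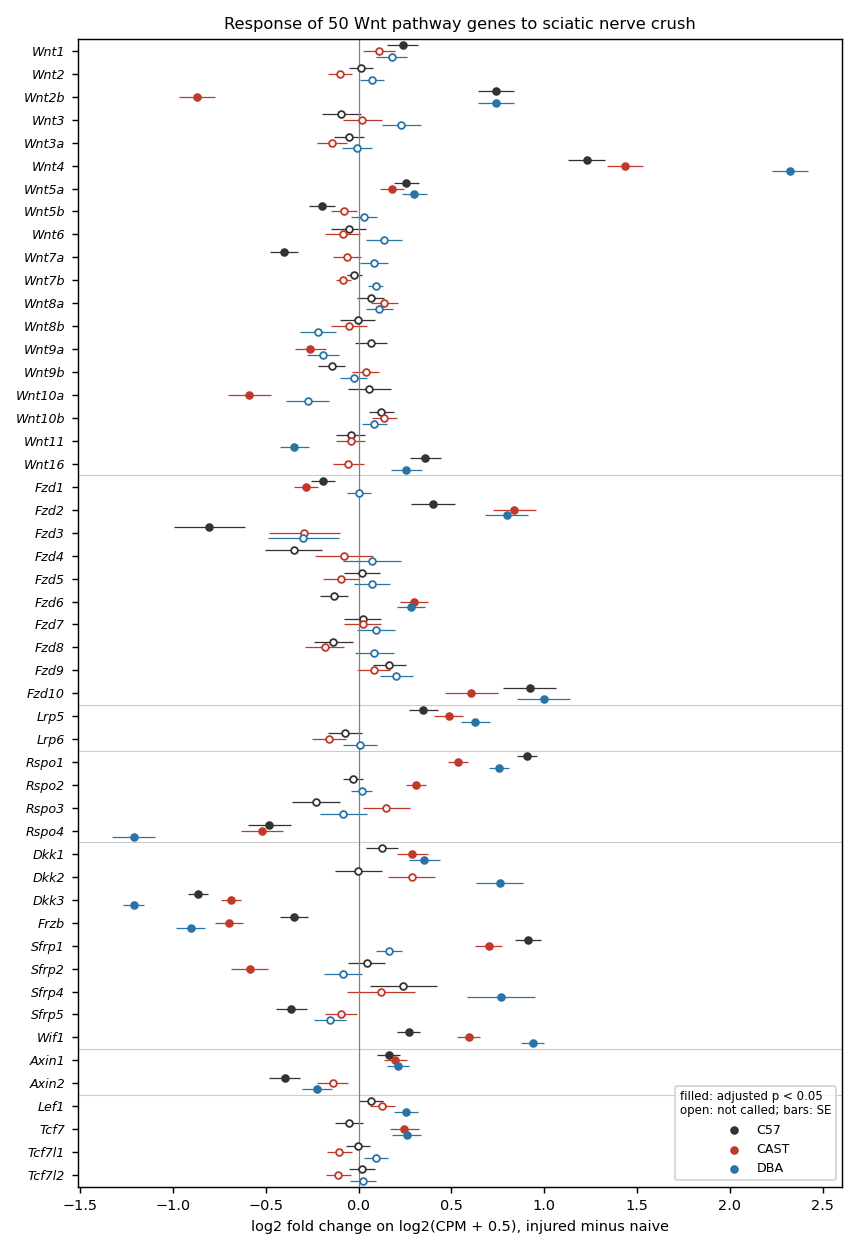
Log2 fold change of the 50 tested members 5 days after crush, with SE bars, for C57 (black), CAST (red) and DBA (blue); filled points passed an adjusted p of 0.05. Wnt4 is farthest to the right, up to 2.32 in DBA, Dkk3 lies left of 0 in every strain, and the 3 points of Wnt2b split with CAST at -0.87 and the others at 0.74.

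Among the ligands, Wnt4 rose most. Wnt4 (ENSMUSG00000036856, chromosome 4, 137277489 to 137299726), a ligand known for kidney and gonad development and for synapse assembly, stood at 0.864, 1.11, 1.29 and 0.706 CPM in naive C57 and at 3.59, 2.61, 2.78 and 2.92 after crush. In CAST it went from 0.913, 0.849, 0.876 and 0.954 to 3.17, 3.31, 3.28 and 3.36 CPM. In DBA it went from 1.775, 1.91, 1.75 and 1.39 to 10.7, 10.8, 9.77 and 10.7 CPM. Every injured library lay above every naive one of its strain, and the injured DBA libraries formed a level of their own. The means rose by a factor of 2.998 in C57, 3.65 in CAST and 6.15 in DBA, which is 1.23, 1.44 and 2.32 in log2 (SE 0.10 each; adjusted p = 2.72e-10, 9.77e-12 and 1.17e-15, limma). The response was larger in DBA than in C57 by 1.09 (SE 0.14, adjusted p = 8.07e-06) and than in CAST by 0.89 (SE 0.14, adjusted p = 5.37e-05), while CAST and C57 differed by 0.21 (SE 0.14, adjusted p = 0.402).

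Wnt2b was the ligand whose response turned direction between strains. Wnt2b (ENSMUSG00000027840, chromosome 3, 104945272 to 104961921), a ligand that signals through β-catenin, was at 17.7, 18.02, 20.05 and 20.26 CPM in naive C57 and at 34.3, 30.4, 31.2 and 32.4 CPM after crush. DBA moved alike, from 15.6, 15.2, 16.4 and 16.1 to 27.0, 24.2, 26.7 and 29.65 CPM. In CAST it started at 77.8, 85.5, 80.1 and 84.3 CPM and was at 49.9, 55.05, 32.9 and 43.8 CPM after crush. No naive and injured libraries of a strain overlapped, and injured CAST replicate 3, the lowest of its group, was still above every injured DBA library. The log2 fold change was 0.74 in C57 (SE 0.10, adjusted p = 1.22e-06), 0.74 in DBA (SE 0.10, adjusted p = 6.997e-07) and -0.87 in CAST (SE 0.10, adjusted p = 6.79e-08). The responses of CAST and the other strains differed by -1.61 both times (SE 0.14; adjusted p = 1.13e-08 against C57 and 1.05e-08 against DBA). Before injury the CAST level was 4.31 times that of C57 and 5.17 times that of DBA, a log2 difference of 2.08 and 2.33 (SE 0.10; adjusted p = 1.46e-14 and 1.61e-15). After crush the means of 45.4 ± 9.54 in CAST, 32.1 ± 1.70 in C57 and 26.9 ± 2.22 CPM in DBA (SD, n = 4) lay closer together. Wnt2b kept its direction and its call in every strain and both comparisons with CAST under every alternative and without any single library.

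Wnt5a, the ligand best known for signalling without β-catenin and for repelling axons, rose by small amounts. Its libraries held 6.40 to 7.26 CPM in naive and 7.89 to 8.65 CPM in injured C57, and 7.93 to 9.23 CPM in naive and 10.2 to 11.04 CPM in injured DBA. In CAST the groups overlapped, with 5.43 to 7.001 CPM before and 6.57 to 7.72 CPM after crush. The log2 fold changes were 0.26, 0.18 and 0.30 in C57, CAST and DBA (SE 0.07; adjusted p = 0.00241, 0.0251 and 0.000388). The CAST call was lost without injured CAST replicate 1 or 3 or naive CAST replicate 1 (adjusted p from 0.0814 to 0.137, log2 fold change from 0.12 to 0.15). An exon of Wnt5a overlaps Gm2670 on the opposite strand, and the strand setting of the counting is not given in the sources used here.

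Wnt16 and Wnt10a stood out by strain. Wnt16, a ligand known from bone and joint tissue, held 2.06, 2.002, 2.149 and 1.56 CPM in naive CAST, 0.492, 0.504, 0.538 and 0.477 in naive C57 and 0.371, 0.491, 0.366 and 0.240 in naive DBA. The lowest CAST library thus lay well above all others, and the naive log2 difference was 1.28 against C57 and 1.495 against DBA (SE 0.08; adjusted p = 6.49e-12 and 3.72e-13). After crush Wnt16 rose in C57, to 0.702 to 0.831 CPM (0.36, SE 0.08, adjusted p = 0.00119), and in DBA, to 0.446 to 0.623 CPM (0.26, SE 0.08, adjusted p = 0.0123), while in CAST the log2 change was -0.06 (adjusted p = 0.630). The DBA call was lost without naive DBA replicate 4 (adjusted p = 0.0703, log2 fold change 0.18). The CAST response was lower than that of C57 by -0.41 (SE 0.12, adjusted p = 0.0214), which was lost without injured or naive CAST replicate 3 (adjusted p = 0.0505 and 0.0510). The deposited values of Wnt16 did not fall on whole reads for its annotated length, so its CPM is only relative between libraries. Wnt10a, a β-catenin ligand of skin and teeth, was highest in naive CAST, at 0.990, 0.857, 0.916 and 1.33 CPM against 0.260 to 0.613 in naive C57 and 0.466 to 0.619 in naive DBA. After crush it was at 0.440 to 0.574 CPM in CAST, below every naive CAST library (-0.59, SE 0.12, adjusted p = 0.000154). Its change was 0.06 in C57 (adjusted p = 0.730) and -0.27 in DBA (adjusted p = 0.0522), and the CAST response differed from that of C57 by -0.65 (SE 0.16, adjusted p = 0.00902).

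Wnt10a lies 6.19 kb from Wnt6 on chromosome 1 in the same orientation, which is one of 4 neighbouring pairs of members. Wnt6 was not called after crush in any strain, at 11.8 ± 1.72 and 11.3 ± 0.878 CPM (C57), 11.4 ± 1.90 and 10.65 ± 0.601 (CAST) and 15.5 ± 1.06 and 17.1 ± 0.792 (DBA; naive and injured; SD, n = 4). The naive strain differences of the pair also ran unlike: Wnt6 was higher in DBA than in C57 (0.39, SE 0.10, adjusted p = 0.00350) and lower in CAST than in DBA (-0.43, SE 0.10, adjusted p = 0.000562). The other pairs are Wnt3a with Wnt9a at 16.2 kb, Wnt9b with Wnt3 at 24.3 kb, both on chromosome 11, and Wnt10b with Wnt1 at 11.7 kb on chromosome 15. Of these 6 genes, only Wnt9a in CAST (-0.26, SE 0.08, adjusted p = 0.0130) and Wnt1 in C57 (0.24, SE 0.08, adjusted p = 0.0259) were called after crush. Neither response differed between strains past the threshold. The Wnt9a call was lost without injured CAST replicate 4 (adjusted p = 0.0607), and the Wnt1 call without any one of 4 C57 libraries (injured replicates 1 and 3, naive replicates 2 and 4; adjusted p from 0.0579 to 0.0733).

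Of the remaining ligands, 3 changed after crush in 1 strain each. Among the 3, only Wnt7a had a response that differed between strains past the threshold. Wnt7a, which acts in synapse formation, fell in C57 from 3.20 ± 0.250 to 2.296 ± 0.166 CPM (-0.40, SE 0.08, adjusted p = 0.000121), and its naive level in CAST was 4.77 ± 0.456 CPM, 1.49 times that of C57 (adjusted p = 4.78e-06) and 1.51 times that of DBA (adjusted p = 3.001e-06). The Wnt7a response of DBA exceeded that of C57 by 0.49 (SE 0.11, adjusted p = 0.00407). Wnt5b fell in C57 by 0.20 on the log2 scale (adjusted p = 0.0236), which was lost without injured C57 replicate 3 or naive C57 replicate 1 or 4 (adjusted p from 0.0568 to 0.132). Wnt11 fell in DBA by 0.35 on the log2 scale (adjusted p = 0.000588), from 0.634 ± 0.0539 to 0.393 ± 0.0571 CPM, and overlaps Gm8398 on the opposite strand. Wnt2, Wnt3, Wnt3a, Wnt7b, Wnt8a, Wnt8b, Wnt9b and Wnt10b were not called after crush in any strain, and of these only Wnt3 and Wnt10b had at least 10 reads in every library.

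**Figure D2:**
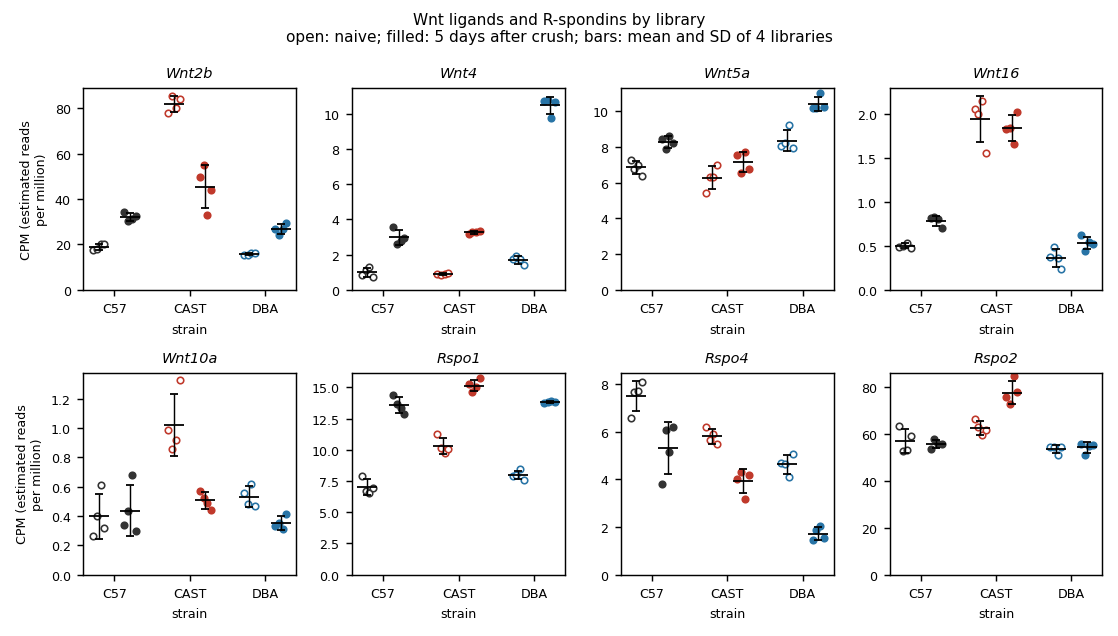
CPM of 5 Wnt ligands and 3 R-spondins in each of the 24 libraries by strain, naive (open) and 5 days after crush (filled), with mean and SD of 4 libraries. Wnt4 in injured DBA sits near 10.5 CPM while no other group passes 3.59, and Wnt2b runs down in CAST but up in the others.

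Of the R-spondins, Rspo1 rose and Rspo4 fell in every strain. Rspo1 (ENSMUSG00000028871, chromosome 4, 124986430 to 125009099) went from 7.92, 6.69, 6.51 and 6.90 CPM in naive C57 to 14.4, 13.65, 13.35 and 12.8 after crush. In CAST it went from 11.2, 10.2, 9.73 and 10.03 to 15.2, 14.6, 15.0 and 15.7 CPM. In DBA it went from 7.93, 7.95, 8.46 and 7.60 to 13.7, 13.8, 13.9 and 13.8 CPM. The groups did not overlap in any strain, and CAST began higher and ended close to the others. The log2 fold changes were 0.91, 0.54 and 0.76 (SE 0.05; adjusted p = 1.24e-12, 8.45e-09 and 1.82e-11). The CAST response was smaller than that of C57 by -0.37 (SE 0.08, adjusted p = 0.00146), and the naive level of CAST exceeded C57 by 0.52 (adjusted p = 1.67e-08) and DBA by 0.35 (adjusted p = 9.36e-06). Naive DBA exceeded naive C57 by 0.18 (adjusted p = 0.0169), which was lost without naive C57 replicate 2 or 3 or naive DBA replicate 3 (adjusted p from 0.0566 to 0.0686).

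Rspo4 (ENSMUSG00000032852, chromosome 2, 151842927 to 151874668), known for its part in nail formation, fell most in DBA. It stood at 4.66, 4.62, 4.11 and 5.08 CPM in naive DBA and at 1.46, 1.86, 2.03 and 1.52 CPM after crush. In C57 the change was from 6.58, 7.66, 7.71 and 8.07 to 3.80, 6.07, 5.16 and 6.21 CPM, and in CAST from 6.21, 5.65, 5.90 and 5.48 to 4.01, 4.32, 3.19 and 4.17 CPM. No groups overlapped, and the injured DBA libraries were the lowest of all. Rspo4 changed in log2 by -0.48, -0.52 and -1.21 in C57, CAST and DBA (SE 0.11; adjusted p = 0.00139, 0.000495 and 2.57e-09). The response in DBA differed from that in C57 by -0.73 (SE 0.16, adjusted p = 0.00408), and that in CAST exceeded that in DBA by 0.69 (SE 0.16, adjusted p = 0.00382). On log2(FPKM + 1), where most members lie under the pseudocount, both differences missed the threshold (adjusted p = 0.423 and 0.227). Rspo2, the most abundant R-spondin, rose in CAST from 62.4 ± 2.91 to 77.5 ± 5.04 CPM (0.31, SE 0.06, adjusted p = 4.90e-05) and stood at 56.97 ± 5.04 and 55.7 ± 1.76 CPM in C57 and 53.5 ± 1.69 and 54.1 ± 2.29 CPM in DBA. The Rspo2 response of CAST exceeded that of C57 by 0.34 (SE 0.08, adjusted p = 0.00418) and that of DBA by 0.29 (SE 0.08, adjusted p = 0.0116). Rspo3 was not called after crush in any strain.

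Of the 10 frizzled receptors, Fzd10 and Fzd2 rose in every strain. Fzd10 (ENSMUSG00000081683, chromosome 5, 128600844 to 128604093) was among the scarcer ones, at 0.419, 0.358, 0.411 and 0.465 CPM in naive C57 and 1.35, 1.204, 1.23 and 1.14 after crush. In DBA it went from 0.643, 0.350, 0.419 and 0.478 to 1.56, 1.27, 1.21 and 1.72 CPM. In CAST it went from 0.5645, 0.6565, 0.249 and 0.7055 to 0.780, 0.849, 1.66 and 1.11 CPM. The CAST libraries were the most spread, yet no groups overlapped. In log2 the rise was 0.92, 0.61 and 0.997 in C57, CAST and DBA (SE 0.14; adjusted p = 1.12e-05, 0.00102 and 2.35e-06), and the responses of the strains did not differ past the threshold (adjusted p from 0.236 to 0.896). Fzd2 (ENSMUSG00000050288, chromosome 11, 102604396 to 102608058) rose too. Its naive and injured libraries held 4.95 to 6.32 and 7.29 to 9.18 CPM in C57, 4.98 to 5.82 and 8.03 to 11.7 CPM in CAST, and 5.89 to 9.12 and 10.8 to 13.6 CPM in DBA. The groups did not overlap. On the log2 scale Fzd2 rose by 0.40, 0.84 and 0.80 (SE 0.12; adjusted p = 0.00767, 1.72e-06 and 3.21e-06). The highest naive Fzd2 value, 9.12 CPM, was in naive DBA replicate 3, the library with 264.9 CPM of muscle genes, and the naive difference of CAST and DBA (-0.35, adjusted p = 0.0170) was lost without it (-0.22, adjusted p = 0.103).

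Fzd6, a planar polarity receptor, rose in CAST (0.30, SE 0.07, adjusted p = 0.00161) and DBA (0.28, SE 0.07, adjusted p = 0.00241) and was at 2.23 ± 0.114 and 1.996 ± 0.186 CPM in C57 before and after crush. Its response in C57 lay below that in CAST by 0.43 (adjusted p = 0.00656) and that in DBA by 0.42 (adjusted p = 0.0121) on the log2 scale, with an exon overlapping Gm26704 on the opposite strand. Fzd1, the most abundant receptor, fell in C57 (-0.19, adjusted p = 0.0189; lost without naive C57 replicate 3, adjusted p = 0.0882) and CAST (-0.29, SE 0.06, adjusted p = 0.000694), and its DBA means were 20.1 ± 1.42 and 20.2 ± 1.76 CPM. Fzd3, which guides axons, was called in C57 alone (-0.80, SE 0.19, adjusted p = 0.00171), where naive replicates 2 and 3 held 5.74 and 6.51 CPM and the other naive libraries 2.29 and 2.89, against 1.87 to 2.27 after crush. Its response did not differ between strains past the threshold (adjusted p from 0.269 to 0.995). Naive C57 replicates 2 and 3 stood apart from 1 and 4 in other members too, higher in some and lower in others. They held more Fzd4 (10.14 and 8.855 against 5.90 and 7.23 CPM) and Sfrp4 (18.5 and 16.3 against 12.5 and 11.1 CPM). Lrp6 was also higher in them (32.6 and 35.1 against 22.95 and 28.6 CPM). On the lower side, they held 100.4 and 92.9 against 136.9 and 126.0 CPM of Sfrp5, and 15.7 and 15.7 against 18.6 and 18.3 CPM of Frzb. Dkk3 showed no such split (130.7 and 125.0 against 131.9 and 130.9 CPM). Leaving out 1 library at a time cannot show how far a call rests on such a pair. Fzd4, Fzd5, Fzd7, Fzd8 and Fzd9 were not called after crush in any strain.

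Lrp5 rose in every strain and Lrp6 in none. Lrp5 (ENSMUSG00000024913, chromosome 19, 3584828 to 3686564) went from 3.31, 4.12, 3.91 and 3.91 to 5.18, 5.48, 4.445 and 4.875 CPM in C57. In CAST it went from 4.23, 4.645, 4.51 and 4.90 to 7.01, 7.53, 6.04 and 5.90 CPM, and in DBA from 4.57, 4.38, 4.49 and 4.18 to 7.64, 7.42, 6.26 and 7.10 CPM. No groups overlapped. Lrp5 thus rose by 0.35, 0.49 and 0.63 in log2 (SE 0.08; adjusted p = 0.000755, 1.24e-05 and 2.44e-07), and the strains' responses did not differ past the threshold (adjusted p from 0.128 to 0.520). Lrp6 stood at 29.8 ± 5.31 and 28.0 ± 1.71 CPM (C57), 31.3 ± 1.13 and 28.1 ± 3.29 (CAST) and 30.6 ± 2.04 and 30.75 ± 1.79 (DBA; naive and injured; SD, n = 4; adjusted p = 0.581, 0.172 and 0.950). Axin1, the scaffold of the β-catenin destruction complex, rose slightly, by 0.16, 0.20 and 0.21 in C57, CAST and DBA (SE 0.06; adjusted p = 0.0347, 0.00835 and 0.00461). The naive and injured C57 libraries overlapped (4.25 to 5.12 and 5.02 to 5.57 CPM), and that call was lost without any one of 6 of the 8 C57 libraries (all but injured replicate 3 and naive replicate 4; adjusted p from 0.0523 to 0.124). Axin2, a well-known target of β-catenin signalling, fell in C57 from 5.00 ± 0.374 to 3.67 ± 0.245 CPM (-0.40, SE 0.08, adjusted p = 0.000392). It fell in DBA from 5.48 ± 0.474 to 4.64 ± 0.656 CPM (-0.22, adjusted p = 0.0272; lost without injured DBA replicate 3 or 4 or naive DBA replicate 3, adjusted p from 0.0877 to 0.110). In CAST it was at 4.83 ± 0.173 and 4.37 ± 0.525 CPM (adjusted p = 0.180). The Axin2 response did not differ between strains past the threshold, and the gene overlaps Gm11670 on the opposite strand.

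**Figure D3:**
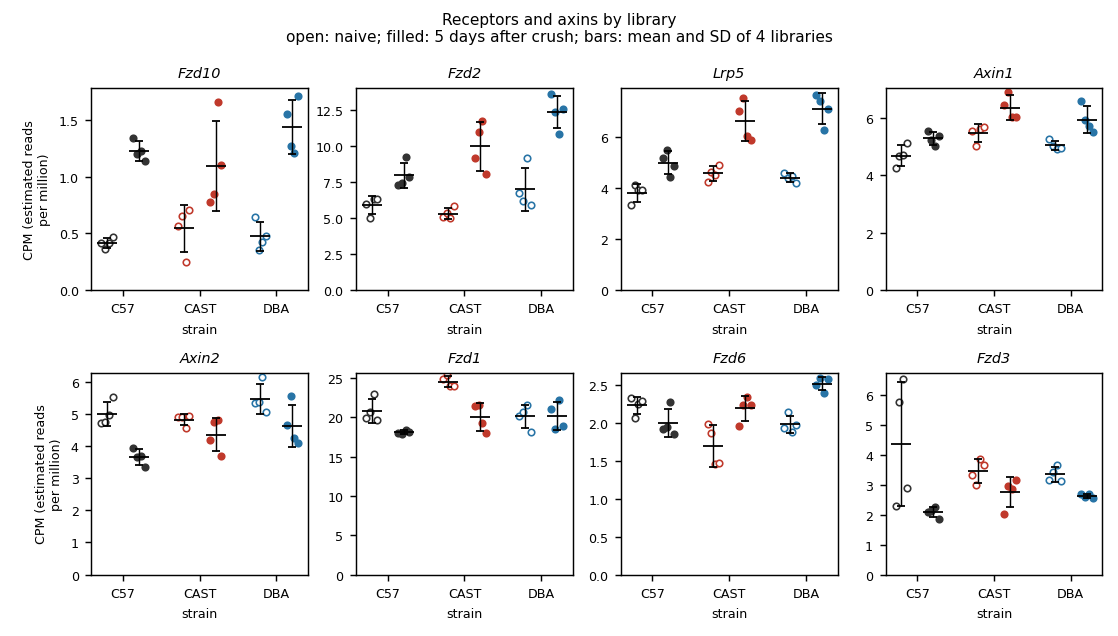
CPM of 5 frizzled receptors, Lrp5, Axin1 and Axin2 in each of the 24 libraries by strain, naive (open) and 5 days after crush (filled), with mean and SD of 4 libraries. Fzd10, Fzd2 and Lrp5 lie higher after crush in every strain without overlap, and naive C57 Fzd3 splits into a pair of libraries near 6 and a pair near 2.5 CPM.

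The antagonists moved both ways. Dkk3 (ENSMUSG00000030772, chromosome 7, 112116017 to 112159057) fell most clearly, from 131.9, 130.7, 125.0 and 130.9 CPM to 63.8, 76.15, 71.98 and 72.6 CPM in C57. In CAST it fell from 107.2, 107.2, 105.7 and 109.9 to 68.15, 71.1, 66.2 and 61.3 CPM, and in DBA from 126.2, 127.7, 126.7 and 127.6 to 48.8, 59.8, 56.3 and 54.1 CPM. Naive libraries of a strain agreed within a few CPM, and every injured library lay far below them. Dkk3 changed in log2 by -0.86, -0.69 and -1.21 (SE 0.055; adjusted p = 5.07e-12, 1.90e-10 and 5.46e-15). The fall was deeper in DBA than in CAST by 0.52 (SE 0.08, adjusted p = 2.998e-05) and than in C57 by 0.35 (SE 0.08, adjusted p = 0.00484), both in log2. Frzb, a frizzled-related protein that binds Wnt ligands, fell in C57 (17.1 ± 1.62 to 13.3 ± 0.613 CPM), CAST (21.4 ± 1.08 to 13.1 ± 1.64) and DBA (20.8 ± 0.875 to 10.9 ± 0.988; SD, n = 4). No Frzb groups overlapped, and the log2 fold changes were -0.35, -0.70 and -0.90 (SE 0.08; adjusted p = 0.000686, 4.37e-08 and 4.37e-10). The DBA response differed from that of C57 by -0.56 (SE 0.11, adjusted p = 0.00138), and the CAST response by -0.35 (adjusted p = 0.0357), which was lost without any one of 8 libraries (injured C57 replicates 2, 3 and 4, naive C57 replicates 2 and 3, injured CAST replicate 3, naive CAST replicates 2 and 4; adjusted p from 0.0552 to 0.0826).

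Sfrp1 rose in C57 and CAST from very different starting levels. Sfrp1 (ENSMUSG00000031548, chromosome 8, 23411502 to 23449632) was at 35.9, 36.6, 39.2 and 34.35 CPM in naive C57 and at 72.2, 64.8, 73.8 and 66.1 after crush. In CAST it was at 9.77, 8.80, 9.04 and 8.71 CPM and then at 14.25, 15.7, 17.4 and 13.2 CPM. In DBA it was at 42.3, 39.2, 44.7 and 39.8 CPM and then at 43.4, 44.1, 50.9 and 48.2 CPM, and only there did the groups overlap. The log2 fold changes were 0.91 in C57 (SE 0.07, adjusted p = 1.99e-10), 0.70 in CAST (SE 0.07, adjusted p = 1.11e-08) and 0.17 in DBA (SE 0.07, adjusted p = 0.0543). The DBA response was lower than that of C57 by -0.75 (SE 0.10, adjusted p = 2.02e-05), and that of CAST exceeded that of DBA by 0.53 (SE 0.10, adjusted p = 0.000490), although on log2(FPKM + 1) the latter difference missed the threshold (adjusted p = 0.282). Naive C57 held 4.02 times and naive DBA 4.57 times the CAST level (log2 difference of CAST -1.95 and -2.13, SE 0.07; adjusted p = 1.07e-16 and 2.31e-17), and even the highest injured CAST library lay under the lowest naive library of the other strains.

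Wif1 was rare and was called higher after crush in every strain, but it reached 10 reads in only 12 libraries, 1 of them naive, and so entered the test through the groups where it is high. Its libraries held 0.0139, 0.0137, 0.150 and 0.0165 CPM in naive C57 and 0.157, 0.128, 0.155 and 0.195 after crush, and the groups overlapped through naive C57 replicate 3. In CAST it went from 0.0177 to 0.0469 CPM before to 0.260 to 0.358 CPM after crush, 8.56-fold, and in DBA from 0.0624 to 0.0924 to 0.567 to 0.657 CPM, 7.76-fold. The log2 fold changes, which the pseudocount shrinks at this level, were 0.27, 0.59 and 0.94 in C57, CAST and DBA (SE 0.06; adjusted p = 0.000959, 1.72e-08 and 4.94e-12). The strains' responses differed (CAST minus C57 0.32, adjusted p = 0.0149; CAST minus DBA -0.34, adjusted p = 0.00825; DBA minus C57 0.67, adjusted p = 1.48e-05), but with voom on the estimated reads none of these passed (adjusted p = 0.676, 0.970 and 0.717) and the CAST minus DBA difference turned to 0.05. The Wif1 values also did not fall on whole reads for its annotated length, so its CPM is relative only.

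Sfrp2 fell in CAST, from 1.16, 1.02, 0.901 and 0.931 to 0.416, 0.600, 0.409 and 0.590 CPM, to the level of the other strains. The CAST change was -0.59 (SE 0.10, adjusted p = 2.88e-05), beside 0.04 in C57 (adjusted p = 0.772) and -0.08 in DBA (adjusted p = 0.522), and it differed from them by -0.63 (SE 0.14, adjusted p = 0.00345) and -0.50 (SE 0.14, adjusted p = 0.0170). The naive level of CAST was 1.93 times that of C57 and 1.78 times that of DBA (adjusted p = 5.10e-05 and 0.000228). Sfrp2 is only relative in scale for the same reason as Wif1 and overlaps Gm26771 on the opposite strand. Sfrp5 fell in C57 from 136.9, 100.4, 92.9 and 126.0 to 91.9, 88.8, 82.9 and 87.1 CPM (-0.36, SE 0.09, adjusted p = 0.00145), and its naive CAST level, 81.0 ± 7.50 CPM, was below C57 and DBA (-0.48 and -0.49; adjusted p = 6.26e-05 and 5.04e-05). The Sfrp5 response did not differ between strains past the threshold. Dkk2 and Sfrp4 were called in DBA alone. Dkk2 went from 0.5745 ± 0.154 to 1.31 ± 0.102 CPM (0.76, SE 0.13, adjusted p = 1.63e-05), more than in C57 (0.76, SE 0.18, adjusted p = 0.00667), while the difference of the CAST and DBA responses missed the threshold (-0.47, SE 0.18, adjusted p = 0.0798). Sfrp4 went from 13.4 ± 4.24 to 22.5 ± 2.23 CPM (0.77, SE 0.18, adjusted p = 0.00121), with no difference between strains past the threshold (adjusted p from 0.106 to 0.847). Dkk1, the classical co-receptor blocker and itself a β-catenin target, reached 10 reads in 8 libraries, all of them injured. It stood at 0.0766 ± 0.0298, 0.158 ± 0.130 and 0.176 ± 0.0358 CPM in injured C57, CAST and DBA, against 0.0279 to 0.0310 CPM in the naive means, and entered the test only through its high groups.

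**Figure D4:**
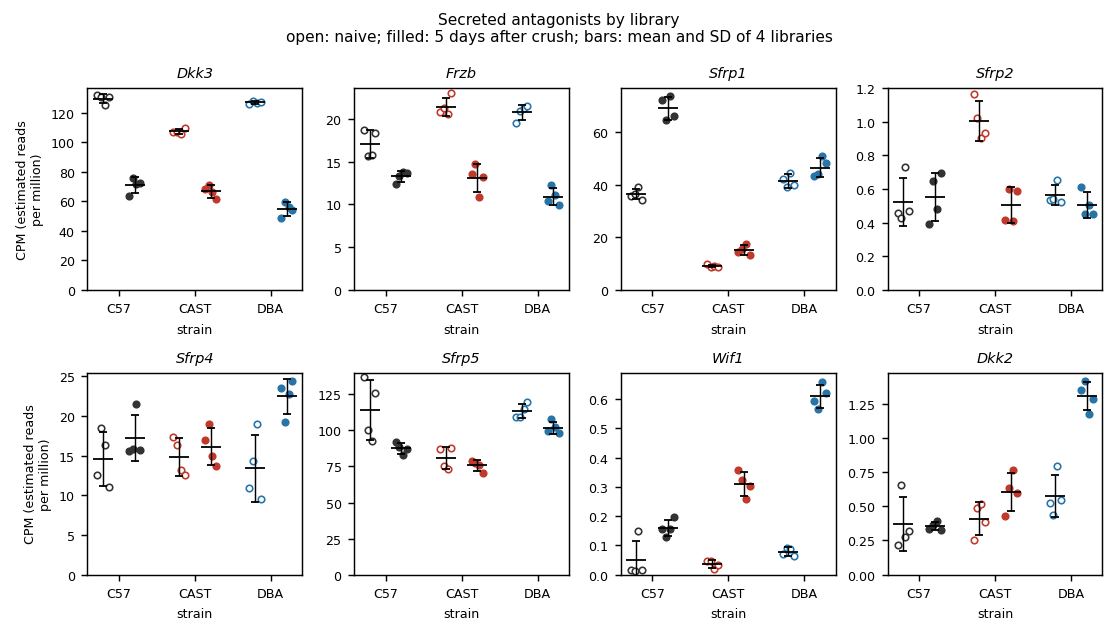
CPM of 8 secreted antagonists in each of the 24 libraries by strain, naive (open) and 5 days after crush (filled), with mean and SD of 4 libraries. Dkk3 drops from 105.7 to 131.9 CPM in naive libraries to 48.8 to 76.2 after crush, and Sfrp1 in CAST reaches at most 17.4 CPM in both conditions.

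At the nuclear end, Tcf7 rose in CAST (0.25, SE 0.08, adjusted p = 0.0111) and DBA (0.26, SE 0.08, adjusted p = 0.00712), from 1.68 ± 0.195 to 2.08 ± 0.179 and from 1.46 ± 0.185 to 1.84 ± 0.0716 CPM. Lef1 rose in DBA, from 1.01 ± 0.0615 to 1.30 ± 0.0706 CPM (0.26, SE 0.07, adjusted p = 0.00198). T lymphocytes also express both factors, and of 11 T lymphocyte genes C57 had 3 that rose and 1 that fell, CAST 8 that rose and DBA 5. Their summed levels were of 2.22 to 3.67 CPM in naive and 2.77 to 6.04 CPM in injured libraries, and their part in the change was not tested. Tcf7l1 and Tcf7l2 were not called after crush in any strain. For none of the 4 TCF/LEF factors did the response differ between strains past the threshold.

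The size of the response differed between strains for a minority of the 50. The CAST and C57 responses differed for 10 members, 4 higher and 6 lower in CAST (20%, beside 12.3% of all genes, 7.31% higher and 5.02% lower). Those of CAST and DBA differed for 10, also 4 higher and 6 lower in CAST (20%, beside 14.5%, 7.74% higher and 6.71% lower). Those of DBA and C57 differed for 9, 5 higher and 4 lower in DBA (18%, beside 9.22%, 4.88% higher and 4.34% lower). In all 17 members had a difference, a count that was not made over all tested genes. These comparisons share libraries of a strain, so each difference stands on its own. By size they were led by Wnt2b, Wnt4, Dkk2, Sfrp1 and Rspo4, as given above. Some passed least firmly: Fzd1 and Wnt7b between CAST and DBA (-0.29 and -0.18, adjusted p = 0.0340 and 0.0404, limma), and Wnt7a and Frzb between CAST and C57 (0.34 and -0.35, adjusted p = 0.0377 and 0.0357, limma). The Fzd1, Wnt7a and Frzb differences were each lost without any one of 8 libraries, with adjusted p up to 0.0854, 0.0913 and 0.0826. The Wnt7b difference was lost without any one of 12.

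In naive ganglia CAST stood apart from both other strains more often than these did from each other. Of the 50 tested, 23 differed between CAST and C57 (17 higher and 6 lower in CAST, 46% beside 46.3% of all genes, 25.2% higher and 21.1% lower), 25 between CAST and DBA (14 higher and 11 lower, 50% beside 46.5%, 24.6% higher and 22% lower) and 9 between DBA and C57 (8 higher and 1 lower, 18% beside 23%, 12.2% higher and 10.7% lower). The shares were near the background of all genes or below it. Markers of other cells differed beside them: of 5 adipocyte genes tested, 5 were higher in naive CAST than in C57 and 4 than in DBA, with a summed level of 11.4 to 31.2 CPM in naive CAST, 2.54 to 8.25 in C57 and 3.15 to 21.05 in DBA. Of 10 genes of myelinating Schwann cells, 7 were lower in naive CAST than in DBA, and against C57 4 were lower and 2 higher, with sums of 1294 to 1714 CPM in CAST, 1641 to 1964 in C57 and 1981 to 2539 in DBA. Their part in the members' differences was not tested. Of the 19 ligands, 8 were higher and 0 lower in CAST than in C57. Against DBA, 6 were higher and 4 lower in CAST. Among the 8, Wnt2 and Wnt3a reached 10 reads in 1 naive C57 library each, against 4 and 3 naive CAST libraries. Among the 6, Wnt9b did so in 0 naive DBA and 3 naive CAST libraries. These calls entered the test mostly through groups where the gene is high and give no support for the counts. The Wnt3a and Wnt9a calls against C57 (adjusted p = 0.0440 and 0.01525, limma) were lost without any one of 6 and 2 libraries. The 4 R-spondins were called higher in CAST than in DBA. Of these R-spondin calls, that of Rspo4 (0.30, adjusted p = 0.0314) was lost without any one of 5 libraries (naive CAST replicates 1 and 3, naive DBA replicates 1, 2 and 3; adjusted p up to 0.0995) and that of Rspo3 (0.37, adjusted p = 0.0190) without naive CAST replicate 4 or naive DBA replicate 2 or 4 (adjusted p up to 0.0977). Against C57, Rspo4 was lower in CAST (-0.34, adjusted p = 0.0167; lost without naive C57 replicate 4, adjusted p = 0.05001), and Rspo3 was higher (0.50, adjusted p = 0.002225). Wnt2, at few reads, held 0.182 ± 0.0412 CPM in naive CAST and 0.0637 ± 0.0366 in naive C57 (0.27, adjusted p = 0.00111). Fzd9 was 2.28 times as high in CAST (0.859 ± 0.0584 CPM) as in C57 (0.376 ± 0.0343; adjusted p = 2.55e-06) and 1.75 times as high as in DBA (0.490 ± 0.0989; adjusted p = 0.000156). Fzd7 was lowest in CAST, at 3.44 ± 0.233 CPM against 4.32 ± 0.363 in C57 (adjusted p = 0.0204; lost without naive C57 replicate 2, adjusted p = 0.0682) and 5.47 ± 0.627 in DBA (adjusted p = 2.76e-05). Wnt4 was higher in DBA than in C57 by 0.57 (SE 0.10, adjusted p = 7.32e-05), and Rspo4 was lower in DBA than in C57 by -0.64 (SE 0.11, adjusted p = 0.000122). All libraries were aligned to mm10, the C57BL/6J genome, and the effect of strain variants on the counts was not tested.

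**Figure D5:**
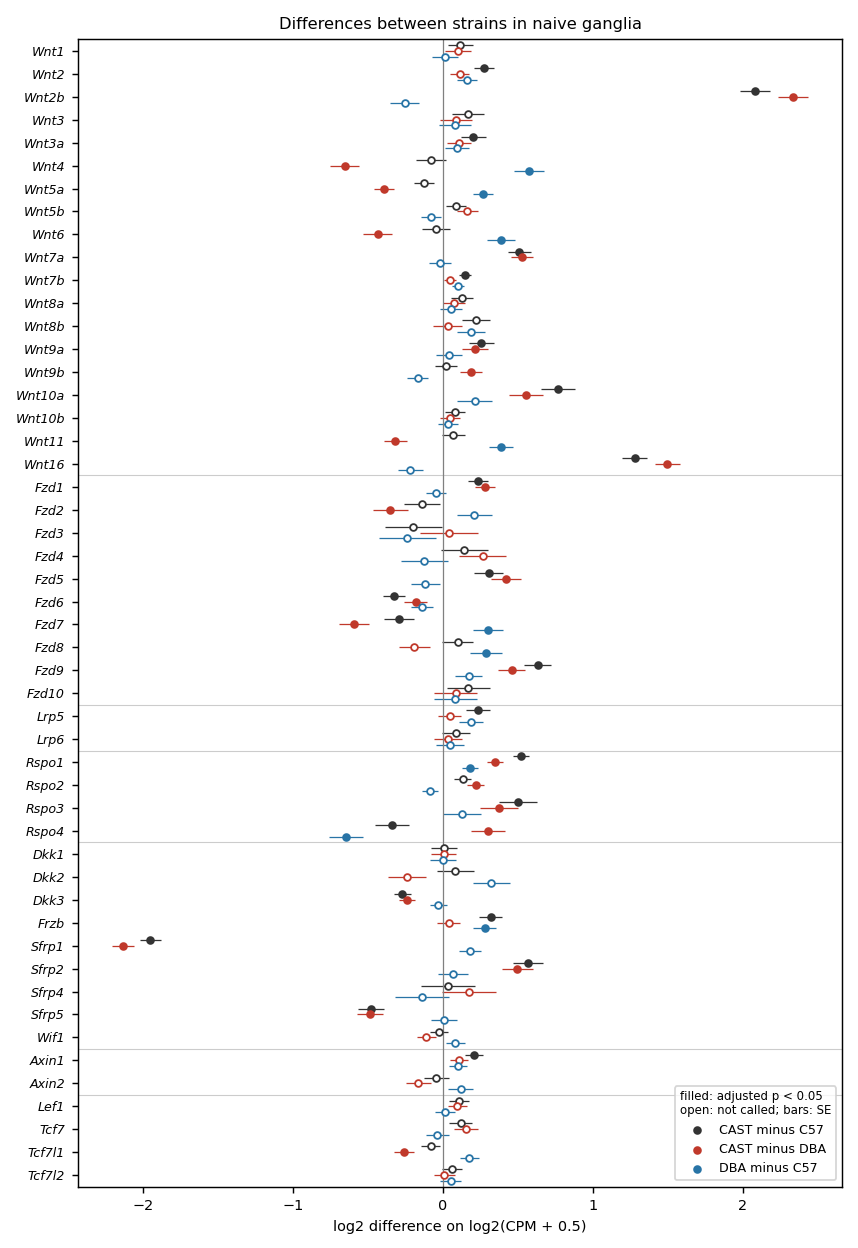
Log2 differences between strains in naive ganglia for the 50 tested members, with SE bars; black is CAST minus C57, red CAST minus DBA and blue DBA minus C57, and filled points passed an adjusted p of 0.05. Wnt2b and Wnt16 lie far to the right and Sfrp1 far to the left for CAST, while the DBA minus C57 differences lie between -0.64 (Rspo4) and 0.57 (Wnt4).

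The rest of the pathway was read from lists of other Wnt genes. The lists overlap, so that Apcdd1 counts among the inhibitors and the targets, and Nkd1 among the cytoplasmic genes and the targets. Genome-wide, rises made up 19.5%, 26.7% and 27.5% of tested genes after crush, and falls 21.3%, 22.4% and 24.7% (order C57, CAST, DBA). The counts of rises and falls in these lists were not tested against those shares and are a description only. Of 8 other extracellular inhibitors, rises numbered 3 (C57), 4 (CAST) and 6 (DBA), and 1 gene fell, in DBA. Draxin, an axon guidance protein that also binds Wnt co-receptors, rose in C57 from 2.71 ± 0.335 to 21.5 ± 1.56 CPM, with log2 fold changes of 2.78, 2.03 and 1.42 in C57, CAST and DBA (adjusted p = 4.19e-17, 9.63e-15 and 5.67e-12). Tpbg, a membrane glycoprotein known to dampen Lrp6 signalling, rose by 1.53, 1.79 and 2.38 (adjusted p = 6.33e-14, 2.34e-15 and 1.04e-17), in DBA from 1.18 ± 0.0865 to 8.21 ± 0.268 CPM.

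Of 11 other receptors tested, the counts of rises and falls were 2 and 4 (C57), 1 and 5 (CAST), and 3 and 4 (DBA). Lgr6, a receptor for R-spondins, rose by 0.48, 0.33 and 0.59 in C57, CAST and DBA (adjusted p = 1.19e-05, 0.000717 and 3.71e-07). Ptk7, a planar polarity co-receptor, fell by 0.61, 0.43 and 0.75 on the log2 scale (adjusted p = 7.61e-07, 5.77e-05 and 1.72e-08), and Ror2, a Wnt5a receptor, fell by 0.35, 0.33 and 0.52 (adjusted p = 2.17e-05, 3.86e-05 and 4.33e-08). Of the 2 genes for secretion of ligands, Wls, the carrier that brings Wnt proteins to the cell surface, rose in DBA (0.38, adjusted p = 2.81e-06) from 30.8 ± 0.389 to 40.4 ± 2.13 CPM. In C57 and CAST limma called neither gene. Porcn, the enzyme that attaches lipid to Wnt proteins, had an unadjusted limma p of 0.0389 in CAST (adjusted p = 0.0746), and no other of these 4 tests was below 0.05 unadjusted. Of 10 planar polarity genes, rises and falls numbered 1 and 2 (C57), 2 and 1 (CAST), and 3 and 2 (DBA). Invs rose by 0.14, 0.15 and 0.23 (adjusted p = 0.00580, 0.00316 and 3.50e-05), and Prickle2 fell by 0.37, 0.30 and 0.38 on the log2 scale (adjusted p = 4.60e-05, 0.000409 and 2.33e-05).

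Of 26 cytoplasmic and nuclear genes, rises and falls numbered 5 and 4 (C57), 7 and 7 (CAST), and 6 and 9 (DBA). The co-repressor Tle3 rose by 0.70, 0.81 and 1.06 (adjusted p = 7.02e-07, 4.96e-08 and 3.86e-10), while its relative Tle4 fell by 0.25, 0.60 and 0.58 on the log2 scale (adjusted p = 0.000127, 1.64e-10 and 2.49e-10). Of 14 listed genes that are known targets of β-catenin signalling in other tissues, 10 were tested. Among these, C57 had 4 rises and 2 falls, CAST 4 and 3, and DBA 5 and 2. Their median log2 fold change was 0.13, 0.15 and 0.17. Myc rose by 0.58, 0.74 and 0.89 (adjusted p = 1.04e-06, 1.22e-08 and 4.56e-10), and Bambi, an inhibitor of TGF-β receptors, fell by 0.87, 0.84 and 1.02 on the log2 scale (adjusted p = 4.72e-11, 4.90e-11 and 1.23e-12). Axin2 fell beside them, as given above, and Lgr5 fell in CAST by 0.39 on the log2 scale (adjusted p = 2.73e-05).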

How the data were processed

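RNA-seq of dorsal root ganglia was read from the deposited tables, which give FPKM made by the authors with STAR 2.3.0 on mm10, per the submitters' processing notes. No source used here names the counting tool, annotation or strand setting. The FPKM had been divided by the whole gene span: multiplied by the GENCODE M21 span (known for 95.1% of 38215 genes), 64.48% to 69.62% of low values fell within 0.05 of a whole read, against 10% by chance. CPM is this product, in estimated reads scaled to the library total, and that total (51.38 M to 145.4 M) sets its precision. For 10 members the span did not give whole reads. Rspo3, Wnt2 and Fzd10 did so at a length off by 0.837%, 0.698% and 8.09%, which scales their CPM by that much in every library. Tcf7l2, Sfrp2, Wif1, Wnt10b, Wnt11, Wnt16 and Wnt7b did so at no length within 20%, so the CPM of these 7 is relative.

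Genes with 10 estimated reads in 4 libraries (26159) were fitted as 6 group means on log2(CPM + 0.5) with limma 3.58.1 (statmod 1.5.0, R 4.3.3; trend and robust variance), with Benjamini-Hochberg adjustment within each of 9 contrasts; the code was tested on simulated data. The values are not counts as deposited, so no count model was used. Members were named per library where called alike in all 3 strains, or where leading the strain differences in response or the naive differences; per library values of other members were added after their values were seen. Members and lists were chosen with earlier results of these data known. Alternatives were another pseudocount, FPKM + 1, other filters and scaling, voom, the contrast's groups alone, a replicate block, and leaving out libraries. Replicate numbers did not pair the libraries: within strains 2 of 12 same-numbered pairs had deviations correlated over 0.1.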

Additional observations from a re-analysis of the deposited data

Results flagged for a closer look

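Of 96 groups of 4 libraries examined, 5 had 1 library far from the other 3, and chance gives about 4.8. Sfrp2 stood at 0.7313 CPM in naive C57 replicate 3 (others 0.4295 to 0.4668) and at 0.6535 CPM in naive DBA replicate 3 (others 0.5246 to 0.5423). Wif1 stood at 0.1497 CPM in naive C57 replicate 3 (others 0.01372 to 0.0165). Wnt4 was low in injured DBA replicate 3 at 9.774 CPM (others 10.69 to 10.79), and Wnt5a high there at 11.04 CPM (others 10.19 to 10.24).

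The response to crush differed between strains, by the test of the difference itself, for these members on the log2 scale. In CAST minus C57 the differences were -1.609 for Wnt2b, -0.6472 for Wnt10a, -0.6289 for Sfrp2, -0.4149 for Wnt16, -0.3699 for Rspo1, -0.3488 for Frzb and 0.323 for Wif1. In CAST minus DBA they were -1.611 for Wnt2b, -0.8862 for Wnt4, -0.5024 for Sfrp2, -0.3437 for Wif1, 0.5245 for Dkk3, 0.5344 for Sfrp1 and 0.6923 for Rspo4. In DBA minus C57 they were 1.093 for Wnt4, 0.6667 for Wif1, -0.7465 for Sfrp1, -0.7317 for Rspo4, -0.556 for Frzb and -0.3468 for Dkk3.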

How the results depend on the processing

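Over the alternatives that kept all libraries or left out 3 at once, the number of members called stayed within 1.5 times its value in each of the 9 contrasts: 19 to 22 after crush in C57, 17 to 22 in CAST and 19 to 28 in DBA. Leaving out 1 library at a time gave 19 to 22, 20 to 22 and 21 to 24. Of 89 called values of named members, 73 kept direction and call throughout, 12 were lost under another alternative and 10 when 1 library was left out, some of them in both ways. One reversed: with voom, the Wif1 response of CAST minus DBA was 0.04651. Fitting the replicate number as a block gave 21, 22 and 22 members called after crush in C57, CAST and DBA, and 10, 11 and 9 for the differences in response; the numbers did not pair the libraries, and 6 of 24 libraries correlated best with their own number. The cause of these losses was not tested. Leaving out naive DBA replicate 3 together with naive replicate 1 and injured replicate 3 of C57 was chosen after seeing the data. The lowest members (Dkk1, Wif1 and several Wnt ligands) rest on few reads, and differences among them may not be detectable at this depth.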
